A study of Schizosaccharomyces pombe with 6 samples.

Results

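The RNA that co-purified with Red1 in fission yeast (Schizosaccharomyces pombe) was compared with total RNA of the same cells on 2 custom tiling arrays, 2 of the 6 arrays of the study. These were the arrays labelled Red1-FTP, replicates 1 and 2, in which the strain p919 carried Red1 with Flag, protein A and a TEV protease site between them fused to its C terminus. The cultures had reached an optical density of 1.8 to 2.2 in YEA medium at 30 °C. The purified RNA (IP) was taken from anti-Flag beads at the end of a tandem purification, and the input was total RNA of the whole cell extract. Both RNAs were treated with DNase and reverse transcribed from random hexamers, with Cy5 for the IP and Cy3 for the input on both arrays. The other 4 arrays of the study had Mtl1-FTP or Red5-FTP as bait, with the same tag and growth and with 2 arrays each. In the study's strain list the Red5-FTP strain differs from the Red1-FTP and Mtl1-FTP strains in mating type and ade6 allele. A difference between Red5-FTP and the other baits therefore cannot be told apart from a difference of strain. Every strain carried a tagged bait and both arrays had the same dye orientation. A mock purification of untagged cells was not used here, so RNA that binds the beads or favours a dye cannot be told apart from RNA bound through Red1. A log2 ratio in this report is IP over input after centring each array on the median of its non-control spots. It is a relative enrichment, so a value of 0 is the level of the middle probe of the array.

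Red1 is a zinc-finger protein and forms, with the Mtr4-like helicase Mtl1, the core of MTREC, a nuclear complex that hands RNAs to the nuclear exosome for degradation. Its known substrates in this yeast include meiotic mRNAs made in growing cells, unspliced pre-mRNAs and cryptic unstable transcripts. The last are short-lived noncoding RNAs that arise upstream of promoters, antisense to genes or beyond their ends. Meiotic mRNAs and cryptic unstable transcripts are scarce in total RNA of cells with a working exosome. In a purification of this kind they would therefore be looked for where the input is dim.

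The arrays held 174063 tile probes, which alternate between the strands, so that odd and even probe numbers read opposite strands. The log2 ratios behaved accordingly along the probe order of the densely tiled part, probes 1 to 147000. Probes 2 numbers apart, neighbours on a strand, correlated at 0.58 on replicate 1 and 0.56 on replicate 2, and probes 1 number apart, on opposite strands, at 0.18 and 0.085 (across probes, which are not independent). No probe was tied here to a gene or a position, so results are given per window of 10 consecutive same-strand probes and each window is named by its first probe.

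The input was well above background at 47.3% of tile spots on replicate 1 and 47.1% on replicate 2, and the IP at 63.3% and 57.1%. The larger share in the IP came from spots with signal in the IP alone, 17.7% and 12.01% of all spots, against 1.76% and 2.01% with signal in the input alone. The median log2 ratio of the IP-only spots was 2.19 and 2.34. Spots with signal in both channels had medians of -0.05 and 0.05, and spots with signal in neither had -0.10 and -0.03, so the zero of the scale lay at the level of both kinds of spot. On both arrays at once, 15633 probes (8.98%) were measured in the IP alone, and 28252 probes (16.2%) had a log2 ratio of at least 1 against 4385 (2.52%) at or below -1. Among the 73104 probes with signal in both channels of both arrays these shares were 9.57% and 2.31%. The 2 arrays correlated at 0.749 over all probes and at 0.797 over the probes measured in every channel. Precision is limited by the number of arrays.

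Of the 14700 windows, 4651 were enriched in the Red1-FTP IP (31.6%, limma, Benjamini-Hochberg adjusted p under 0.05), with a median log2 ratio of 1.21, and 664 were depleted (4.52%), with a median of -0.86. The study's methods call the replicates biological and the labels give them a number only, and the p-values rest on the spread between replicate arrays pooled over the 3 baits (3 residual degrees of freedom before moderation). Every called window had the same sign on both Red1-FTP arrays, and over all windows 78.1% did. The replicates correlated at 0.805 (Spearman 0.761), and their windows differed by a median of 0.38. Of the 1383 windows at 2 or more on either array, 90.0% were at 1 or more on the other. The counts depended on the zero of the scale and on replicate 1. With each array centred on its mean, 0.43 and 0.42 higher, 2765 windows were enriched and 3557 depleted, so that the enriched share of the calls went from 87.5% to 43.7%. It was 62.6% with the scanner software's log ratio, 74.8% with signals before dye normalization and 77.3% with normexp and loess. Without replicate 1 of Red1-FTP, 3020 windows were enriched and 117 depleted. With the normexp background correction 2915 windows were enriched and 553 depleted.

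**Figure D1:**
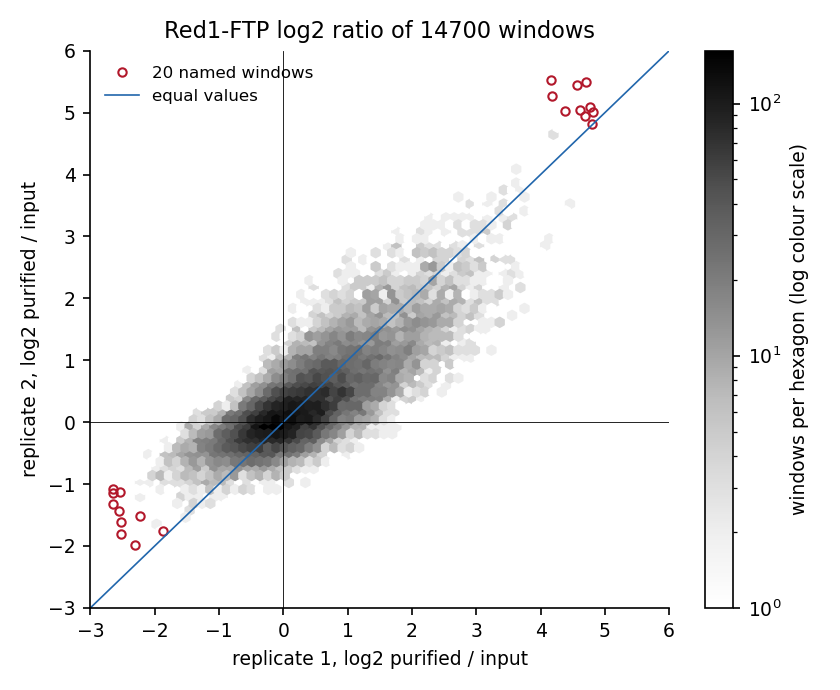
Mean log2 ratio (IP over input) of each of 14700 windows on replicate 1 (x axis) and replicate 2 (y axis) of Red1-FTP, as hexagons whose grey gives the number of windows on a log scale, with the 20 named windows circled and a line of equal values. The cloud rises along the line with a correlation of 0.805, reaches further up than down, and the circled lowest windows lie left of the line, being lower on replicate 1.

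Windows were then grouped by the input of the 4 arrays of the other baits, which does not enter the Red1-FTP ratio. Among 3948 windows with input RNA (at least 80% of probes detected on those 4 arrays), 10.9% were enriched and 10.6% depleted, and the median was -0.08. Among 2796 windows that lay opposite such RNA and had little input of their own, 45.7% were enriched and 0.608% depleted, with a median of 0.58. Quiet windows, with little input on either strand, were enriched in 36.4% of 1762 cases (median 0.36), and the 6194 remaining windows in 37.1% (median 0.35). The median window was thus at the array's zero where total RNA was plentiful and above it where total RNA was scarce. Dye normalization and centring set that zero, and these medians were taken under the main treatment only. Of the 4651 enriched windows, 38.96% had input above background at under 20% of their probes, and 504 (10.8%) had it at 80% or more, with a median log2 ratio of 0.94. By the other baits' inputs, 3948 of all 14700 windows had it at 80% or more. The 2796 and 1762 windows above, and an uncounted part of the remaining ones, had it at 20% or less. The share of all windows under the Red1-FTP input cuts was not counted. The shares of enriched windows therefore do not show whether their inputs were dimmer than those of the rest.

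The arrays differed in how far the groups lay apart. Replicate 2 minus replicate 1 averaged 0.18 in windows with input RNA and 0.28 in windows opposite to it, but -0.35 in quiet windows and -0.18 in the remaining ones. Over all windows the mean difference was -0.01.

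The ratio did not fall steadily with the input level. In deciles of the mean input signal of the other baits' arrays, the mean log2 ratio over all tile probes was 0.08 in the lowest decile, 0.60 in the second, 1.02 in the third and 1.01 in the fourth. It then fell through 0.83, 0.50 and 0.19 to 0.07 in the eighth, and it was 0.00 and -0.07 in the highest deciles. The highest means thus lay in deciles in which 0.955 to 2.32% of the Red1-FTP input spots were above background. In the lowest decile the IP was above background at 3.43% of spots on replicate 1 and 1.67% on replicate 2. From the eighth to the tenth decile replicate 1 went from -0.01 to -0.19 and replicate 2 from 0.14 to 0.06, so that the decline among bright probes was larger on replicate 1.

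**Figure D2:**
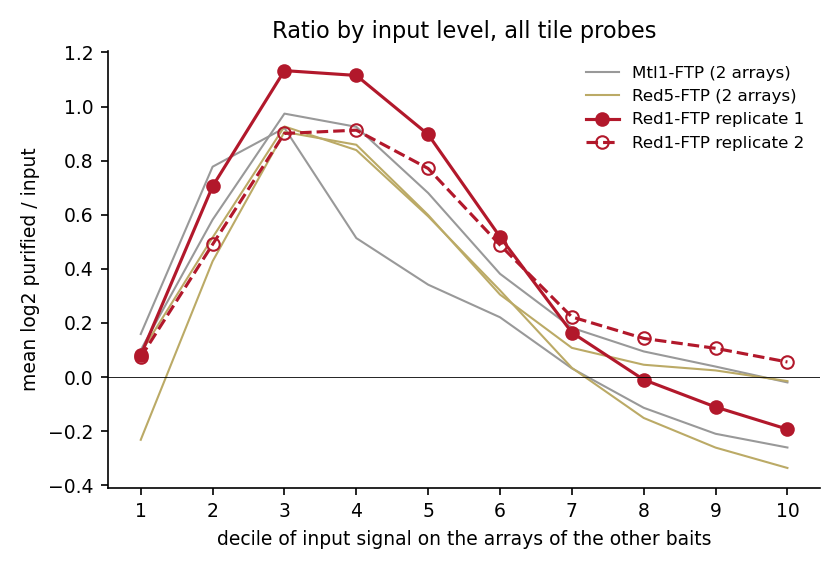
Mean log2 ratio (y axis) of tile probes against the decile of their average input brightness on the 4 arrays with another bait (x axis, 1 lowest), for each Red1-FTP replicate (red) and for the 2 arrays of each other bait (grey and ochre lines). Both Red1-FTP lines peak in deciles 3 and 4, at 1.13 and 1.11 on replicate 1 and 0.90 and 0.91 on replicate 2, and end near 0.

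In terms of signal, the purified RNA was still mostly RNA that is also seen in the input. Of the signal of the dense part, 97.6% of the input and 93.0% (replicate 1) and 96.1% (replicate 2) of the IP came from probes detected in all 4 inputs of the other baits. Probes detected in none of those inputs, 39.6% of the probes, carried 1.003% and 1.03% of the input signal and 2.89% and 1.58% of the IP signal. The IP signal of replicate 2 was the more concentrated, with 67.6% of it on the brightest 1% of probes against 52.4% on replicate 1, while the input had 54.9% and 54.8%.

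The highest windows were enriched on both arrays by more than 4 on the log2 scale. The highest of all, sp40c_111661, measured 4.71 on replicate 1 and 5.50 on replicate 2 (mean 5.11 ± 0.56, SD, n = 2; limma, adjusted p 4.10e-05). Its opposite strand was also high, at 3.14 and 3.62. The other baits gave 3.99 to 4.99 there, so the window was high on all 6 arrays and replicate 2 of Red1-FTP was the highest of them.

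Among the 10 highest windows, sp40c_9322 and sp40c_33201 had every input probe above background on both arrays, so their ratios rest on measured signals in both channels. The window sp40c_9322 measured 4.81 and 5.02 and sp40c_33201 measured 4.61 and 5.05. In sp40c_33201 the log2 input signal was 10.71 and 10.62 and the log2 IP signal 15.03 and 15.34. It is therefore a bright RNA in total RNA that was brighter still in the IP, unlike most of the enriched windows. The opposite strands of both windows were enriched too, at 3.03 and 3.21 for sp40c_9322 and 2.52 and 4.16 for sp40c_33201.

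Other windows of the 10 rest partly on dim inputs. In sp40c_116342 only 20% and 10% of input probes were above background. Its ratios of 4.80 and 4.81 become at least 3.61 and 3.38 when each dim input is set to the lowest signal that counts as above background. In sp40c_106822, with 20% of input probes above background on both arrays, 4.39 and 5.03 become at least 2.87 and 3.65. That window lies opposite an RNA that fills the input on its other strand (100% of probes detected), and that strand was also enriched, at 3.63 and 3.75. In sp40c_63901, with 80% and 70% of input probes detected, the ratios were 4.56 and 5.44 and the bounds 4.20 and 5.16. The remaining 5 windows of the 10 (sp40c_86802, sp40c_64721, sp40c_37341, sp40c_102601 and the highest, sp40c_111661) had bounds between 3.49 and 5.40. The IP was above background at 90 to 100% of probes in all 10. A floor on the input therefore lowers some of these ratios and leaves each of them at 2.87 or more.

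The lowest windows were all on strands filled with input RNA, and they were lower on replicate 1 in each case. The lowest, sp40c_53262, measured -2.52 on replicate 1 and -1.81 on replicate 2 (mean -2.17 ± 0.51, SD, n = 2). It forms 1 locus with sp40c_53282 (-2.53 and -1.61) and sp40c_53302 (-2.22 and -1.52), the next windows of the same strand. Another 4 of the 10 (sp40c_47882, sp40c_47922, sp40c_47942 and sp40c_47982) lie in a single even-numbered stretch, with -2.66 to -2.54 on replicate 1 and -1.32 to -1.08 on replicate 2. These 4 lost their call without replicate 1 (limma, adjusted p 0.0570 to 0.137). The windows with the closest replicates were sp40c_44321, with -1.87 and -1.75, and sp40c_61401, with -2.30 and -1.99. In sp40c_61401 the IP was above background at only 30% of probes on both arrays. Its ratios become at most -1.51 and -0.75 when each dim IP is set to the lowest signal that counts as above background. In sp40c_95322, with 30% and 70% of IP probes above background, -2.55 and -1.43 become at most -1.85 and -1.15. In the others of the 10 it was 60 to 100%. In the opposite strands of the 10, the ratios ran from -0.95 to -0.21 on replicate 1 and from -0.66 to 0.65 on replicate 2, and only that of sp40c_95322 was itself called depleted. The other baits were low in the same windows, at -3.53 to -0.86.

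**Figure D3:**
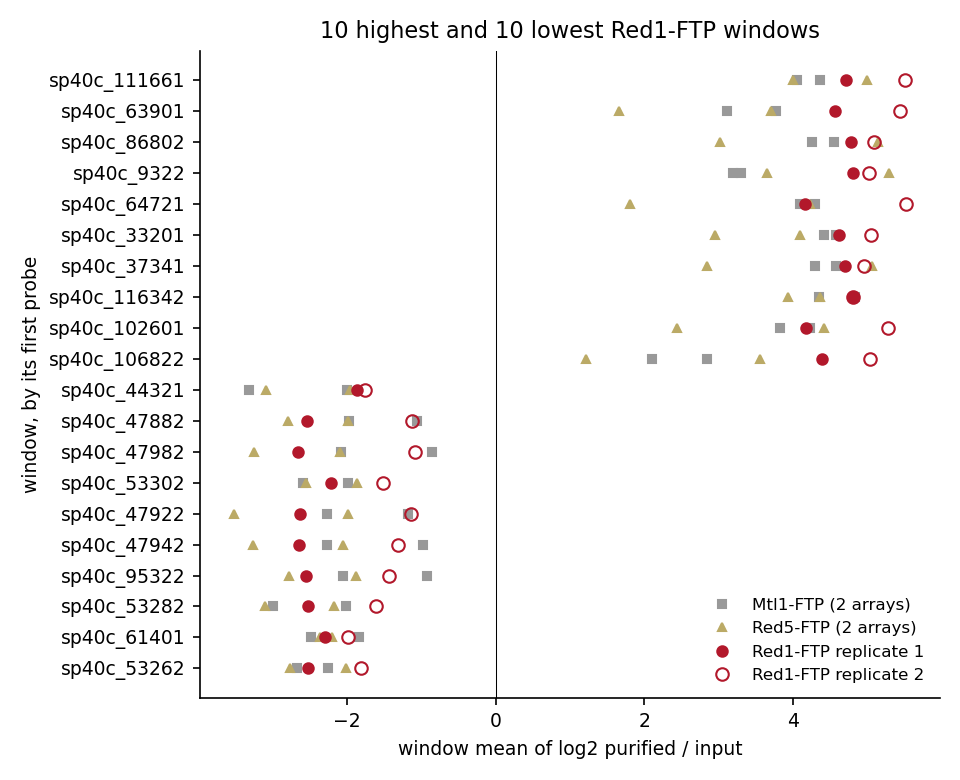
Mean log2 ratio (x axis) of the 10 highest and 10 lowest windows of Red1-FTP (y axis, by first probe) on each of the 6 arrays, with Red1-FTP replicate 1 as filled and replicate 2 as open red circles, Mtl1-FTP as grey squares and Red5-FTP as ochre triangles. All arrays lie on the same side of 0 in each of the 20 windows, and Red1-FTP replicate 2 lies right of replicate 1 in each.

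Whether enrichment followed a strand was examined over stretches of input RNA. A stretch was defined as 10 or more consecutive probes on one strand whose input was detected in all 4 purifications with another bait, provided that no more than 30% of the probes across from it were detected. There were 1212 such stretches, 609 on odd and 603 on even numbers, with a median of 22 probes and up to 139. The direction of transcription is not given by the probe numbers. Ends are therefore called side A, the lower-numbered side of odd and the higher-numbered side of even stretches, and side B, so that all stretches are laid the same way. Stretches whose A sides faced each other lay a median of 22 same-strand probes apart (294 pairs) and those whose B sides faced each other 10.5 probes (295 pairs).

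On the strand of the RNA itself the mean ratio was near the array's zero, 0.00 on replicate 1 and -0.01 on replicate 2. On the opposite strand it was 0.60 and 0.73, giving a difference of 0.60 and 0.74 (mean 0.67 ± 0.10, SD, n = 2). The opposite strand was the higher one on both arrays in 949 stretches (78.3%) and the lower one in 96. Its ratio rose with the level of the RNA across from it. Between the 303 stretches with the dimmest and the 303 with the brightest input, the opposite strand went from 0.44 to 0.89 on replicate 1 and from 0.45 to 1.17 on replicate 2, while the strand of the RNA went from 0.14 to -0.08 and from 0.05 to -0.05. The share of opposite-strand probes above background in the IP rose with it, from 31.2% to 48.1% and from 22.6% to 43.8%, and that in the input from 13.4% to 16.3% and from 10.6% to 13.2%.

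The opposite-strand difference depended on how dim spots were treated. With normexp it was -0.27 on replicate 1 and 0.25 on replicate 2. Over spots with input above background, which keeps 14.6% and 11.3% of the opposite-strand probes, it was -0.19 and 0.63. With both channels set to a floor it was -0.10 and 0.33, and over spots above background in either channel it was 1.13 and 1.65. Replicate 2 kept its direction under all of these settings and replicate 1 did not.

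Beyond the ends of the stretches, where neither strand held much input RNA, the opposite strand was compared with its mean inside all 1212 stretches. It was higher on both arrays beyond side B, but on replicate 1 alone beyond side A. Over the 10 probes beyond side A it averaged 1.22 and 0.69 (335 stretches with such a flank), against 0.78 and 0.38 on the strand of the RNA. Beyond side B it averaged 1.44 and 0.88 (121 stretches), against 0.58 and 0.27. These were set against the mean of the strand of the RNA inside all 1212 stretches, not inside the same stretches only. The opposite strand was higher by 1.22 and 0.70 beyond side A (mean 0.96 ± 0.37, SD, n = 2) and by 1.44 and 0.89 beyond side B (1.16 ± 0.39). Here replicate 1 was the larger, the reverse of the order inside the stretches. Under normexp these differences fell to 0.08 and 0.25 beyond side A and to 0.23 and 0.36 beyond side B. Over spots with input above background they were 0.80 and 0.95, and 1.61 and 1.80.

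The profile was not flat. Beyond side A the opposite strand peaked 5 probes out, at 1.64 on replicate 1 and 0.96 on replicate 2, and dropped to 0.57 and 0.37 at the probe next to the stretch. Beyond side B it was already at 1.27 and 0.73 at the first probe and peaked 4 probes out on replicate 1 (1.78) and 3 out on replicate 2 (1.10). Inside the stretch the opposite strand of replicate 2 rose from 0.62 in the bin at side A to 0.93 in the fifth of 10 bins and fell to 0.36 at side B, whereas replicate 1 stayed between 0.45 and 0.68.

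On the strand of the RNA the ratio fell from side A to side B on both arrays. Replicate 1 went from 0.36 in the first bin to -0.21 in the last, and replicate 2 from 0.18 to -0.28. The outer 3 bins at side A exceeded those at side B by 0.36 and 0.30 (mean 0.33 ± 0.04, SD, n = 2). This slope rests on spots that are bright in both channels (93.4% and 95.4% of them above background in the input) and stayed between 0.20 and 0.38 on either array in every alternative run. With 2 arrays an exact sign-flip test cannot go below a p of 0.5, so no test was made of these values against 0.

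**Figure D4:**
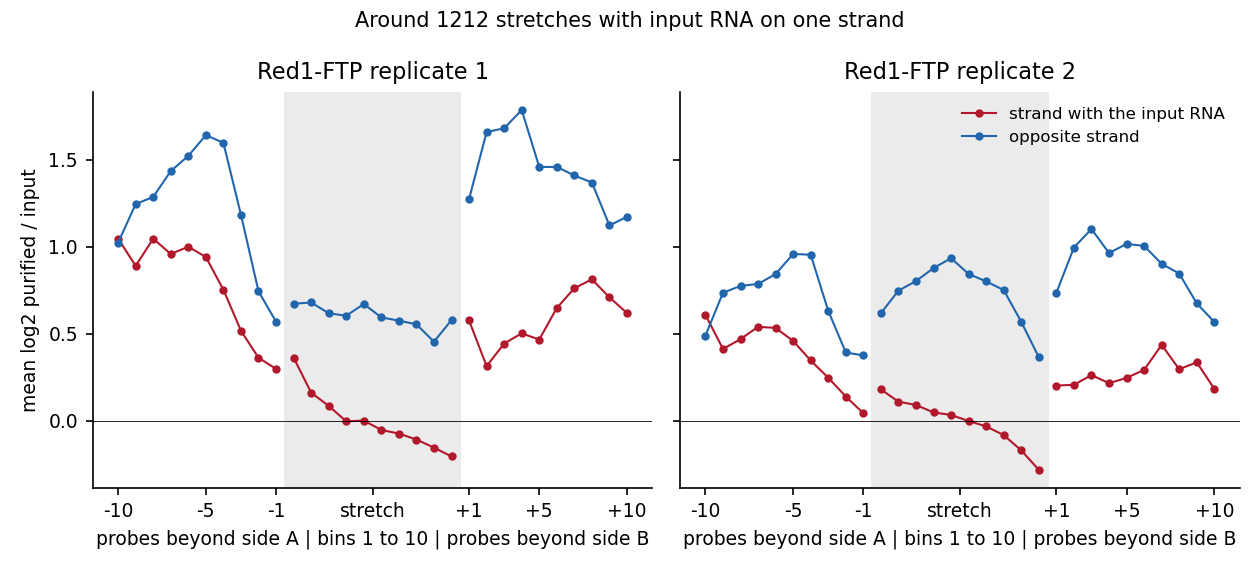
Mean log2 ratio (y axis) along 1212 stretches of input RNA, for Red1-FTP replicate 1 (left) and replicate 2 (right): 10 probes beyond side A, 10 equal bins across the stretch (grey band) and 10 probes beyond side B, on the strand of the RNA (red) and the opposite strand (blue). The flanks cover only the 335 (side A) and 121 (side B) stretches with little input beyond that side. The blue line lies above the red one at all positions except the probe farthest from side A, and the red line falls across the band from 0.36 to -0.21 and from 0.18 to -0.28.

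The length of the stretch separated the replicates. On replicate 1 the strand of the RNA measured 0.20 in 513 stretches of 10 to 19 probes, -0.01 in 529 of 20 to 39 and -0.58 in 170 of 40 or more. On replicate 2 the same classes measured -0.08, 0.06 and -0.04. The longest minus the shortest class was thus -0.78 on replicate 1 and 0.03 on replicate 2. Replicate 1 was low in long stretches of both lower and higher input (-0.50 in 61 stretches and -0.62 in 109). On the other 4 arrays this difference was -1.34 to -0.36, so replicate 2 of Red1-FTP was the only array without a lower ratio in long stretches. The difference between the replicates was present under each signal treatment run, with -0.80 to -0.55 on replicate 1 and -0.06 to 0.05 on replicate 2. In long stretches replicate 1 went from -0.08 in the bin at side A to -0.74 at side B, and replicate 2 from 0.16 to -0.28. The opposite strand of long stretches was at 0.36 on replicate 1 and 0.79 on replicate 2.

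**Figure D5:**
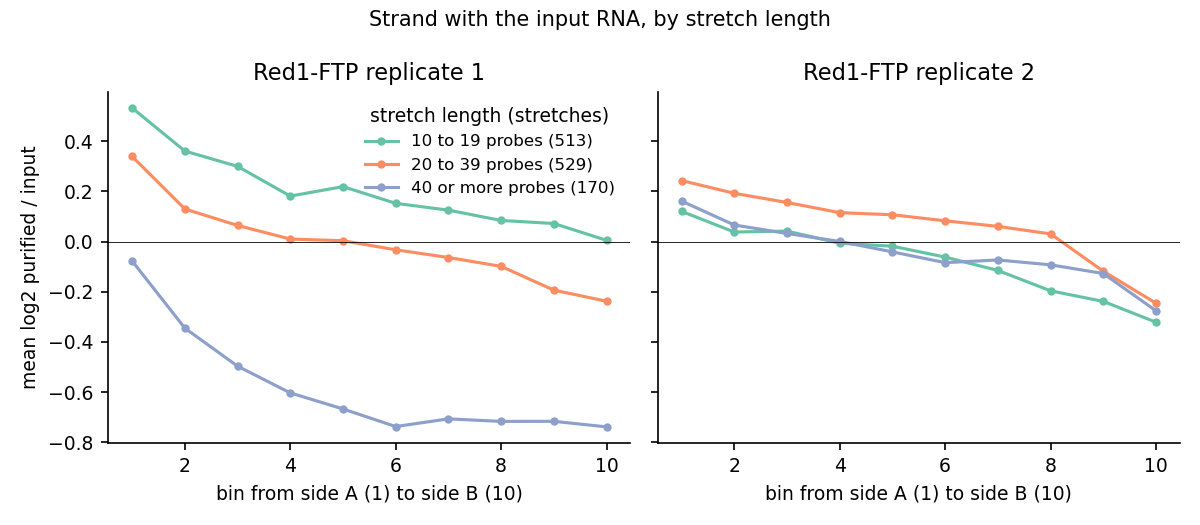
Mean log2 ratio (y axis) on the strand of the RNA in 10 bins from side A to side B (x axis), for stretches of 10 to 19, 20 to 39 and 40 or more probes, on Red1-FTP replicate 1 (left) and replicate 2 (right). On replicate 1 the lines are ordered by length and the longest class falls to -0.74, while on replicate 2 the longest class stays between the other lines or close to them.

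Some single stretches went far beyond the mean. Over the 1212 stretches the replicates correlated at 0.764 on the strand of the RNA and at 0.788 on the opposite one. On both arrays at once, 34 stretches were at 1 or more, 10 at -1 or less, and 219 (18.1%) had an opposite strand at 1 or more. The stretches named next were chosen after their values were seen. The highest, sp40c_33191 with 18 probes, holds the window sp40c_33201 and measured 4.78 and 5.12 on its own strand and 2.08 and 3.59 on the other. The stretch sp40c_91473 (11 probes) measured 4.20 and 4.59, and its opposite strand, at 0.38 and 1.63, was lower than its own strand but above 1 on replicate 2. That opposite strand was above background at only 9.09% and 18.2% of probes in the IP and 9.09% and 0% in the input. In sp40c_9298 (28 probes), by contrast, both strands were high, at 4.11 and 3.99 and at 2.68 and 3.56. The opposite strand of such stretches thus ranged widely.

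At the low end, sp40c_53258 (34 probes) measured -2.38 and -1.64, and the longest stretch, sp40c_47854 (139 probes), -2.21 and -0.97. The stretch sp40c_75169 (19 probes) was the one with equal replicates, -1.46 on both. Its opposite strand was at 1.44 and 0.73, and on the arrays of the other baits its own strand was at -1.03 to -0.43, above both Red1-FTP arrays.

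Runs of enriched probes found on one array were measured on the other, which had no part in finding them. Runs of at least 5 same-strand probes at 1 or more numbered 2807 on replicate 1, with a median of 1.49 on replicate 2. There 97.5% were above 0 and 70.8% at 1 or more. The 2215 runs found on replicate 2 had a median of 2.02 on replicate 1, with 98.8% above 0 and 82.7% at 1 or more. Longer runs held up better when found on replicate 1, from a median of 1.33 on the other array at 5 to 9 probes to 2.28 at 40 or more. When found on replicate 2, runs of 40 or more had a median of 1.59 on replicate 1, below the 1.85 of the shortest. Depleted runs kept their sign in most cases but less often their size. The 592 found on replicate 1 had a median of -0.53 on replicate 2, where 92.1% were below 0 and 13.3% at -1 or less. The 227 found on replicate 2 had a median of -0.97 on replicate 1, with 88.5% below 0 and 48.0% at -1 or less. Runs of 40 or more depleted probes numbered 32 on replicate 1 and 0 on replicate 2, where the longest had 38.

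The longest enriched run of replicate 1, sp40c_91116, spanned 95 probes of the even strand and measured 2.64 and 2.28. Its input was above background at 76.8% and 77.9% of probes, and its opposite strand was raised too, at 1.76 and 1.42. The run sp40c_2913 (67 probes) measured 3.31 and 2.79 and sp40c_49552 (63 probes) 2.27 and 1.60. The opposite strand of sp40c_49552 was lower, at 0.56 and 0.36. The longest enriched run of replicate 2, sp40c_17708 (chosen after its values were seen), had 121 probes of the even strand and measured 1.02 on replicate 1 and 1.39 on replicate 2. It lay opposite a strand with input above background at 100% of probes on both arrays, which measured -0.85 and -0.49, and its own input was above background at 85.1% and 90.9% of probes. The other baits ran from -0.87 to 1.58 there. The longest depleted runs of replicate 1, sp40c_47850 (128 probes), sp40c_108548 (120) and sp40c_46648 (103), measured -2.29, -1.85 and -1.69 on replicate 1 and -1.03, -0.73 and -0.62 on replicate 2.

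Strands could be enriched together or apart. Of the 4651 enriched windows, 1740 (37.4%) had an enriched opposite strand and 156 a depleted one, beside 31.6% and 4.52% of all windows. Of the 664 depleted windows, 156 (23.5%) lay opposite an enriched window and 38 (5.72%) opposite another depleted one.

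Along the probe order, the mean over blocks of 1000 probe numbers ran from -0.02 to 1.21 on replicate 1 and from 0.06 to 1.20 on replicate 2, with a replicate correlation of 0.781 over 147 blocks. The highest block, from sp40c_91001, holds the longest enriched run of replicate 1 and measured 1.21 and 0.93. The block from sp40c_114001 measured 0.71 and 1.20 and that from sp40c_9001 1.01 and 0.80. The lowest were sp40c_132001 (0.02 and 0.08), sp40c_103001 (-0.01 and 0.13) and sp40c_112001 (0.09 and 0.06). The last had input above background at only 21% and 20.6% of its probes and IP at 28.9% and 22.6%. Many of its spots thus had signal in neither channel, and such spots lay near 0 on this scale. A low mean ratio was found there as well as in parts with the usual amount of input RNA.

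To ask what was particular to Red1-FTP, its mean was tested against the mean of the other baits. No window passed in either direction (0 of 14700, 0%, limma, smallest adjusted p 0.805). At an unadjusted p under 0.05, 653 of the 14700 windows were higher and 179 lower, where the threshold alone would pass a share of 0.05. Both Red1-FTP arrays lay above the 4 others in 1698 windows (11.6%) and below them in 400 (2.72%). If the 6 arrays were interchangeable, each order would be expected in 1 of 15 windows. The mean of the probes lay further above the centring median on the Red1-FTP arrays (0.43 and 0.42) than on the others (0.24 to 0.39). Whether this shifts the counts was not tested. A gap of 1 or more between the Red1-FTP arrays and the 4 others was found in 1 window, sp40c_134202. It measured 0.65 and 0.68 against -1.40 to -0.37 (chosen after its values were seen). Arrays of Red1-FTP and Red5-FTP shared both their slides. With slide as a fixed block, which leaves 1 residual degree of freedom, 1 window was higher and 8 lower with Red1-FTP. The higher one, sp40c_53802, measured 1.65 and 1.42 with Red1-FTP and 1.10 on each Mtl1-FTP array, but -0.51 and -0.50 with Red5-FTP as bait (adjusted p 0.0436).

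Of the 8 lower windows, 7 lie next to one another between sp40c_82761 and sp40c_82841, on both strands. In sp40c_82781, where every input probe of Red1-FTP was above background, Red1-FTP measured -0.75 and 0.27 and Red5-FTP -0.64 and 0.19, whereas Mtl1-FTP measured 4.14 and 4.38 (adjusted p 0.000333 with slide as a fixed block). The values of Red1-FTP and Red5-FTP overlapped, and those of Mtl1-FTP stood apart from both. The eighth, sp40c_125942, had the same pattern, with -0.52 and -0.18 against 1.90 and 2.17 with Mtl1-FTP.

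Among the stretch values, the opposite-strand difference inside stretches was the one in which both Red1-FTP arrays (0.60 and 0.74) lay above the 4 others (0.36 to 0.42). An exact two-sided permutation test over the 15 ways to choose 2 of 6 arrays gave p = 0.133, the smallest it can give, and 0.533 after Benjamini-Hochberg adjustment over 4 contrasts. The stretches were chosen by the inputs of the 4 other arrays, which enter those arrays' ratios but not those of Red1-FTP. The 6 arrays are therefore not exchangeable here, and the test cannot decide whether the difference belongs to Red1-FTP. The within-slide differences that follow share this limit. Within slides, Red1-FTP exceeded Red5-FTP by 0.18 on slide 1 and by 0.32 on slide 2. On slide 1 it exceeded Mtl1-FTP by 0.19. In the other 3 contrasts the Red1-FTP arrays did not both lie on one side of the other baits. The slope from side A to side B was 0.36 and 0.30 with Red1-FTP and 0.26 to 0.40 with the others.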

How the data were processed

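RNA from Red1-FTP purifications (IP) was labelled with Cy5 and total RNA of that strain (input) with Cy3, and both were measured on 2 custom Agilent arrays. The 4 further arrays with Mtl1-FTP or Red5-FTP as bait served for comparison and for the shared estimate of spread. Groups and replicate numbers were taken from the labels. By the scanner output, all first replicates shared slide 1. The second Red1-FTP and Red5-FTP replicates shared slide 2, and the second Mtl1-FTP array was on slide 3.

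The authors deposited the output of Agilent Feature Extraction 10.7.3.1 for each array. Its processed signals, as deposited, are intensities with background removed, spatial trends taken out and the dyes normalized by lowess. Signals close to background are replaced there by an estimate of their error. The deposited median and background-subtracted intensities come from earlier steps. The deposited log ratio is on the log10 scale, red over green, and each spot has a p-value that the authors took from the software's error model. The deposited value table of the series holds log2 ratios set to 0 where that p-value was 0.05 or more, 55.6% of the probes on replicate 1, and was not used for results.

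Here log2 of processed Cy5 over processed Cy3 was taken per spot, 55 and 56 tile spots flagged as outliers were left out, and the median of the non-control spots was subtracted from each array. It lay at -0.30 and -0.33 before centring. Detection is the software's call of a signal well above background. Windows of 10 same-strand probes of the densely tiled part needed at least 5 values per array and were fitted in limma 3.58.1 (R 4.3.3) with a coefficient per bait, Red1-FTP being tested against 0 and against the mean of the other baits, with Benjamini-Hochberg adjustment over all windows. The named windows are the 10 highest and 10 lowest past the threshold with one sign on both arrays, and the 3 longest runs and highest and lowest blocks were named likewise. Signal, centring, window, block and left-out-array alternatives were run, and the scripts were tested on simulated data. Probe intensities of 300 probes printed in 7 copies had a median SD of 0.277 and 0.225 in log2 ratio (0.140 and 0.133 where both channels were above background). The members and lists were chosen with earlier results of these data known.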

Additional observations from a re-analysis of the deposited data

Results flagged for a closer look

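Probes other than the tiles gave signal that no comparison above uses. Of the 1427 spots named rTm75, 13.03% were well above background in the IP of Red1-FTP replicate 1 and 9.60% in that of replicate 2, and of the 150 spots named randTm75, 16% and 12% were. On the same arrays 0.128% and 0.261% of the negative-control spots were above background in the IP. The input gave 16.5% and 9.53% for rTm75 and 18.7% and 10% for randTm75. The share above background was thus larger in the input on replicate 1 and slightly larger in the IP on replicate 2. What these probes match was not tested.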

How the results depend on the processing

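The counts of windows moved with the signal and the zero of the scale. Enriched windows numbered 2765 and depleted ones 3557 when centred on the mean, 3055 of 11386 and 1030 with signals before dye normalization, 2719 and 800 with normexp and loess, 3458 and 2066 with the software log ratio, and 637 and 338 of 6256 over spots with input above background. With normexp alone 2915 were enriched. With a floor at the lowest signal above background 113 were depleted, and over spots above background in either channel 2463 of 8245 were enriched, both alternatives chosen after seeing the data. Windows of 5 probes gave 7796 and 1337 of 29400, windows of 20 gave 2792 and 330 of 7350, and a test against a log2 ratio of 1 gave 1043 and 4. Leaving out one array at a time gave 3020 to 4472 enriched and 117 to 751 depleted, each low coming without Red1-FTP replicate 1, where the lone array is assumed to vary like the other baits. The difference from the other baits stayed at 0 windows in each direction in every alternative except slide as a fixed block, which gave 1 higher and 8 lower, and 6561 enriched and 2042 depleted. With slide as a random block (estimated correlation 0.318), 4671 were enriched and 800 depleted. The cause of these shifts was not tested.

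The replicate numbers pair the arrays by slide for Red1-FTP and Red5-FTP, but not for Mtl1-FTP, whose second array was on slide 3. The main fit did not use that pairing. Same-numbered arrays deviated from their bait means together for Red1-FTP and Red5-FTP (r = 0.67), which share slides, and oppositely for Mtl1-FTP with either (-0.54 and -0.55). With a replicate block 4374 windows were enriched and 529 depleted.

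The opposite-strand difference inside stretches, 0.67 as a mean of both arrays, was -0.012 with normexp, 0.21 with normexp and loess, 0.12 with a floor, 0.22 over spots with input above background, 0.78 with the software log ratio, 1.33 before dye normalization and 1.39 over spots above background in either channel. In the same order of settings, that beyond side A was 0.17 and 0.40 with normexp without and with loess, 0.39 with a floor, 1.91 before dye normalization and 2.37 over spots above background in either channel. That beyond side B was 0.29 and 0.52 with normexp without and with loess, 0.56 with a floor, 1.71 over spots with input above background, 2.20 before dye normalization, 2.78 over spots above background in either channel and 0.53 without the rule on quiet neighbours. The slope from side A to side B was 0.23 with normexp and with loess added. With one Red1-FTP array left out, these contrasts ran from 0.60 to 0.74, 0.70 to 1.22, 0.89 to 1.44 and 0.30 to 0.36, and the length difference from -0.78 to 0.032. Of 415 values for the 20 named windows under 21 alternatives, 0 changed sign and 12 lost their call, all in low windows, 8 of them in the test against a log2 ratio of 1 and 4 without Red1-FTP replicate 1. Dim inputs limit the opposite-strand values.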
